A study of Rattus norvegicus with 6 samples.

Results

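The mitosis and spindle genes are 36 genes whose proteins drive cells into division, assemble the spindle, guard chromosome separation and cut the cell apart. They were chosen by name from the count tables of 6 RNA-sequencing libraries, and each of the 36 names was found once among the 18077 rows. The libraries were made from polyA RNA of primary cultures labelled as neonatal rat cardiomyocytes, the contractile muscle cells of the newborn heart, from pups of 1 to 3 days. All cultures shared 24 h in 500 µM palmitic acid (a saturated fatty acid), an adenoviral vector, harvest in Trizol after 48 h, and a growth medium that the labels list with serum and BrdU, a thymidine analogue incorporated during DNA synthesis, which the labels give as a means against fibroblast overgrowth. Ad-GFP (3 libraries, treatment label WT) carried green fluorescent protein as the control, and Ad-RNF128 (3 libraries) was labelled as overexpressing RNF128, a ubiquitin ligase. The treatment text names the overexpressed gene as RNF28 in one place and RNF128 in another, and the titles give RNF128. Neither separate animals, batches nor the vector's promoter are named, so a p-value covers only the scatter among these libraries, and that scatter may be technical. Library totals ran from 16352843 to 21708973 counts.

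Entry into mitosis is driven by the kinase Cdk1 bound to A- and B-type cyclins. The kinetochore then links chromosomes to spindle microtubules, and the spindle checkpoint holds back the anaphase-promoting complex, a ubiquitin ligase, until every chromosome is attached. Many of these genes are transcribed together late in the cell cycle, and heart muscle cells leave the cycle soon after birth, whereas fibroblasts and other cells in such cultures can go on dividing. In bulk RNA, fewer dividing cells and less RNA per dividing cell cannot be told apart.

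The rat Rnf128 row did not follow the label, and whether that row would count reads of the vector's insert was not tested. Rnf128 (ENSRNOG00000055721) had 0, 2 and 1 reads in Ad-GFP replicates 1 to 3 and 1, 3 and 1 reads in the libraries labelled Ad-RNF128, where 0 reads in Ad-GFP replicate 1 allows up to 0.183 CPM (a gene's count, times 1000000, over its library total). Another ubiquitin ligase gene, Rnf157, which was singled out after its values were seen, had 22.3, 39.6 and 40.4 CPM in the 3 Ad-GFP libraries and 1923, 2553 and 2090 CPM in those labelled Ad-RNF128. Of 10 cardiomyocyte markers, 9 were in the tables, and their summed level was 74.7, 396 and 393 CPM in Ad-GFP replicates 1 to 3 and 117, 85.9 and 35.2 CPM in the libraries labelled Ad-RNF128. Tnnt2 made up most of that sum in Ad-GFP replicates 2 and 3. The defining genes Myh6, Actc1 and Nppa stayed at or below 17.5 CPM in every library, and Myl7 and Nppa were at 0 in Ad-RNF128 replicate 3, where a count of 0 allows up to 0.156 CPM. Fibroblast markers summed to 3243 CPM in Ad-GFP replicate 1, 38416 and 40049 CPM in Ad-GFP replicates 2 and 3, and 10538 to 11450 CPM in the libraries labelled Ad-RNF128. Collagen genes made up most of that sum: Col1a1, Col1a2 and Col3a1 had 17690, 16876 and 3275 CPM in Ad-GFP replicate 2. Postn ran from 0.978 to 348 CPM and Thy1 from 224 to 305 CPM, but Dcn, Lum, Pdgfra and Tcf21 stayed at or below 2.86 CPM in every library. The cardiomyocyte markers therefore went against the label of the cells, while the fibroblast markers were mixed. Ad-GFP replicate 1 also stood apart: 3551 features were without a read there, against 1190 to 2288 in the other 5 libraries.

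Promoters are shown because those of many such genes are known for a shared pair of elements. Any part of these elements in the changes described further on was not tested. The CHR element, bound by the LIN54 subunit of the DREAM and MuvB complexes, serves to repress or activate genes with the cell cycle, and the CCAAT box is bound by NF-Y. RefSeq windows on build GRCr8, from 250 bases before to 50 bases after the annotated start, were matched by symbol for 30 of the 36 genes. Ccna2, Incenp, Tpx2, Racgap1, Ube2c and Aurkb were not matched. The counts themselves were made on mRatBN7.2. In each role group, the window printed belongs to the matched gene with the smallest p in the comparison described further on. Capitals mark TTTGAA or TTCGAA, searched on both strands (TTCAAA is the reverse of the first), and CCAAT, searched on both strands (ATTGG on the other).
Plk1, chr1:186147408-186147707, plus strand: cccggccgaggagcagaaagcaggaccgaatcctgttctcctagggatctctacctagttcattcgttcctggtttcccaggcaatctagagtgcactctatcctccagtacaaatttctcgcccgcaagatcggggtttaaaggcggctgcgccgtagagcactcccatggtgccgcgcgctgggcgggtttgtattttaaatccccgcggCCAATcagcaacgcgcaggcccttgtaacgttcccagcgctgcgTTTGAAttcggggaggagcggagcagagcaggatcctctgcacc
Bub1b, chr3:126016817-126017116, plus strand: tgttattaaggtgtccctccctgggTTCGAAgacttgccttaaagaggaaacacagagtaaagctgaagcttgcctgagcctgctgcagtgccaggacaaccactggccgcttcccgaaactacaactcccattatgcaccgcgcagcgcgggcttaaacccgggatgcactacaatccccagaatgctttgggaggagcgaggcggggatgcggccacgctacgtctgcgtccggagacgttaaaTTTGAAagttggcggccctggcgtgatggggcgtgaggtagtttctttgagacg
Cdca8, chr5:142483150-142483449, minus strand: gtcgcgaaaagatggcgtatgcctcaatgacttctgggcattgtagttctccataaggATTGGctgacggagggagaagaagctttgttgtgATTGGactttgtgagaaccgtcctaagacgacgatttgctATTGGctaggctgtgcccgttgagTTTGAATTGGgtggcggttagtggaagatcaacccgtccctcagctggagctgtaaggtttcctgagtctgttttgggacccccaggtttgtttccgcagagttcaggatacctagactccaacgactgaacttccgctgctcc
Kif11, chr1:244536617-244536916, plus strand: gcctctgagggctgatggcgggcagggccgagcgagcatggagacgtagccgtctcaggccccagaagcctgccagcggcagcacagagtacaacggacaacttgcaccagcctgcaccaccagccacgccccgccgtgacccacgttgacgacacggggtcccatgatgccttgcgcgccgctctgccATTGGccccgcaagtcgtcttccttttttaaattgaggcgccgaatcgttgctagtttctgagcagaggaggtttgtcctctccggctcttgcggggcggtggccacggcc
Kif20a, chr18:26504172-26504471, plus strand: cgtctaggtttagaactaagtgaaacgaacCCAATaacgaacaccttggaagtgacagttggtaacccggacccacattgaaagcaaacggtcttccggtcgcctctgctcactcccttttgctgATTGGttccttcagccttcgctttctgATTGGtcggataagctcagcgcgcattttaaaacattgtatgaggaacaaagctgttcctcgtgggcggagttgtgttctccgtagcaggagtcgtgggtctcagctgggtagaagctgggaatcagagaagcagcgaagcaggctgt
Cdc20, chr5:137255750-137256049, minus strand: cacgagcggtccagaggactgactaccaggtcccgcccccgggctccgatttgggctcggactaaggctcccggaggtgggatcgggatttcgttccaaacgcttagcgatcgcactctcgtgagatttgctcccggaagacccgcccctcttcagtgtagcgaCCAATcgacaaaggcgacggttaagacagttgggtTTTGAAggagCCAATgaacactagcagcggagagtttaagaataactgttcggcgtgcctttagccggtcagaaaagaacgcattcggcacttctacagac
Top2a, chr10:84473044-84473343, minus strand: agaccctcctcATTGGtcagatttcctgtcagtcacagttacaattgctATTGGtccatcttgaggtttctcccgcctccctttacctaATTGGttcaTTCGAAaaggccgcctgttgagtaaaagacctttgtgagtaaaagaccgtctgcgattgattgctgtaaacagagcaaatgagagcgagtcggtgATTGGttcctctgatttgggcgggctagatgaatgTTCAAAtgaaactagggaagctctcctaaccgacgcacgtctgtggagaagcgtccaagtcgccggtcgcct

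Plk1 held TTTGAA at bases 7 to 12 after its start and CCAAT 38 bases before it. Bub1b held TTCGAA 225 bases and TTTGAA 4 bases before its start, with no CCAAT. In Cdc20 the hexamer began 51 bases before the start, between CCAAT boxes that began 86 and 41 bases before it. Top2a held 2 hexamers and 4 CCAAT boxes, and Cdca8 held 1 hexamer and 4 CCAAT boxes, of which 1 shared a base with the hexamer. The windows of Kif11 and Kif20a held no hexamer, with 1 and 3 CCAAT boxes respectively.

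Over the matched genes, either hexamer was found in 23 of 30 and CCAAT in 22 of 30, with both in 18 and neither in 3 (Bub1, Aurka and Kif2c). Counted over windows, of which Kif2c had more than 1, the hexamers were in 74.2% of 31, against 13.9% of the 10527 windows of genes tested and 19.7% of all 33465 windows. CCAAT was in 71.0% of the windows of these genes, 37.6% of those of genes tested and 37.5% of all. At least 2 CCAAT boxes were in 54.8%, 13.5% and 11.2% of the same sets. Of the 30 hexamers found, 27 were TTTGAA, 23 of them on the strand of the gene, and 3 were TTCGAA, which reads the same on both strands. These are matches of letters, and binding was not measured.

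**Figure D1:**
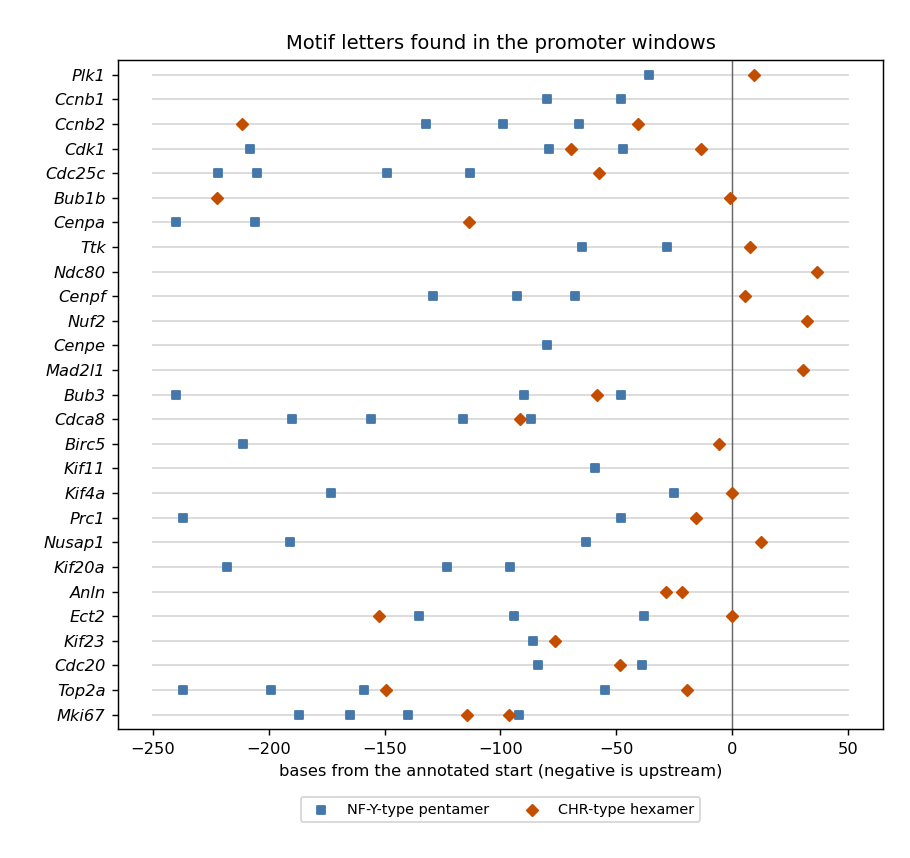
Positions of the hexamers TTTGAA or TTCGAA (diamonds) and of CCAAT (squares), on either strand, in the promoter windows of the matched genes that held either motif; the horizontal axis gives bases from the annotated start, negative upstream. CCAAT squares lie upstream of the start, while the hexamers of Plk1, Ttk, Ndc80, Cenpf, Nuf2, Mad2l1 and Nusap1 lie after it.

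The first comparison asked how these genes differed between the libraries labelled Ad-RNF128 and Ad-GFP replicates 2 and 3. Of the 36 genes, 34 fell, 0 rose and 2 (Bub3 and Cdc25c) did not pass edgeR's quasi-likelihood test with Benjamini-Hochberg adjustment over the 13173 genes tested, at a threshold of 0.05. The background was high: 28.0% of all genes tested were lower and 28.9% were higher by the same rule, 56.9% in either direction. The median log2 change was -0.58, a level 33.2% lower, with quartiles of -0.80 and -0.41 and a range of -1.05 to -0.02, beside a median of 0.01 over all genes tested. All 36 fitted changes were below 0, as were 48.8% of those of all genes. A fall of at least 2-fold was passed by 2 of the 36, Bub1b and Kif11, against 3.79% of all genes tested, and a rise of that size by 0 of the 36, against 8.37%. All 36 passed the low-count filter. The median was -0.60 over the 23 genes with a hexamer in the promoter window and -0.82 over the 7 matched genes without one, given as a description with no test.

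The fitted changes rest on TMM scaling, which gave the libraries labelled Ad-RNF128 larger factors (1.04 to 1.05) than Ad-GFP replicates 2 and 3 (0.92 to 0.96). Scaled by library totals only, 29 of the 36 were lower and 0 were higher, with a background of 18.3% lower and 40.7% higher, 59.0% in either direction. The median of these genes was then -0.43 and the median of all genes 0.17. A change of scaling moves all genes by nearly the same amount, so the distance between both medians could not differ much. The genes that did not pass under that scaling were Bub3, Cdc25c, Cdk1, Nuf2, Cenpe, Mad2l1 and Aurkb.

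Summed over the 36 genes, the level was 3318 and 2959 CPM in Ad-GFP replicates 2 and 3 and 2304, 2295 and 2217 CPM in the libraries labelled Ad-RNF128 (mean 2272 ± 47.7 SD, n = 3), and it was 249 CPM in Ad-GFP replicate 1. The mean of the libraries labelled Ad-RNF128 was 27.6% below the mean of Ad-GFP replicates 2 and 3. The groups did not overlap in CPM for 32 of the genes: 31 were lower in all 3 libraries labelled Ad-RNF128 and 1, Bub3, was higher. Over the 11766 features with a mean of at least 1 CPM in Ad-GFP replicates 2 and 3, the same was so of 25.8% (lower) and 47.1% (higher). Cdk1, Cdc25c, Nuf2 and Cenpe overlapped. The highest library labelled Ad-RNF128 exceeded the lowest by a median factor of 1.09 (range 1.01 to 1.39), and Ad-GFP replicate 3 lay below replicate 2 by a median log2 ratio of -0.15 (range -0.54 to 0.09).

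**Figure D2:**
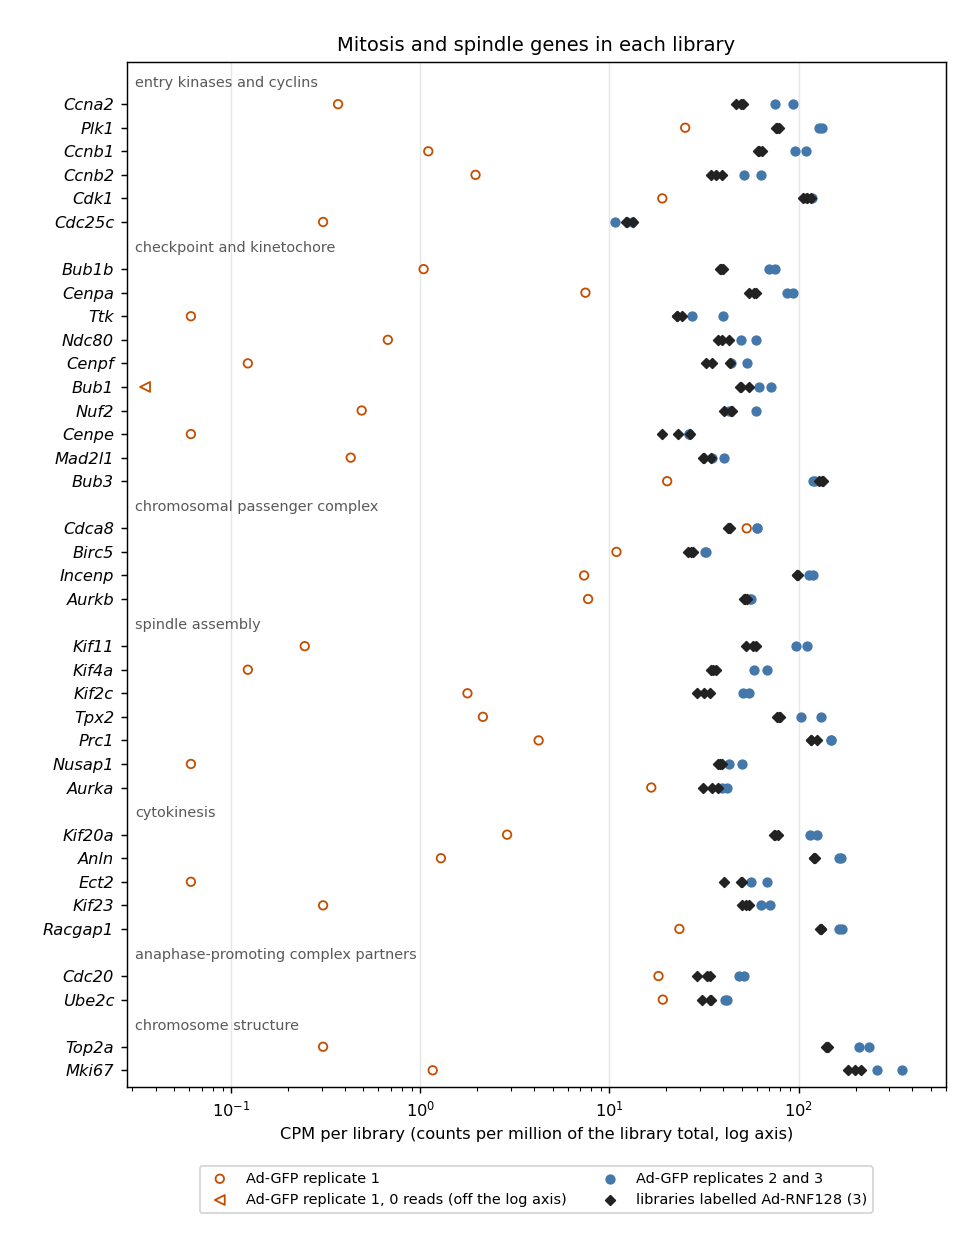
CPM (log axis) of each of the 36 genes in each library, grouped by role: Ad-GFP replicate 1 (open circles, triangle for 0 reads), Ad-GFP replicates 2 and 3 (filled circles) and the libraries labelled Ad-RNF128 (diamonds). The diamonds lie left of both filled circles for 31 genes, and Ad-GFP replicate 1 lies left of all other points for 35, the exception being Cdca8.

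**Figure D3:**
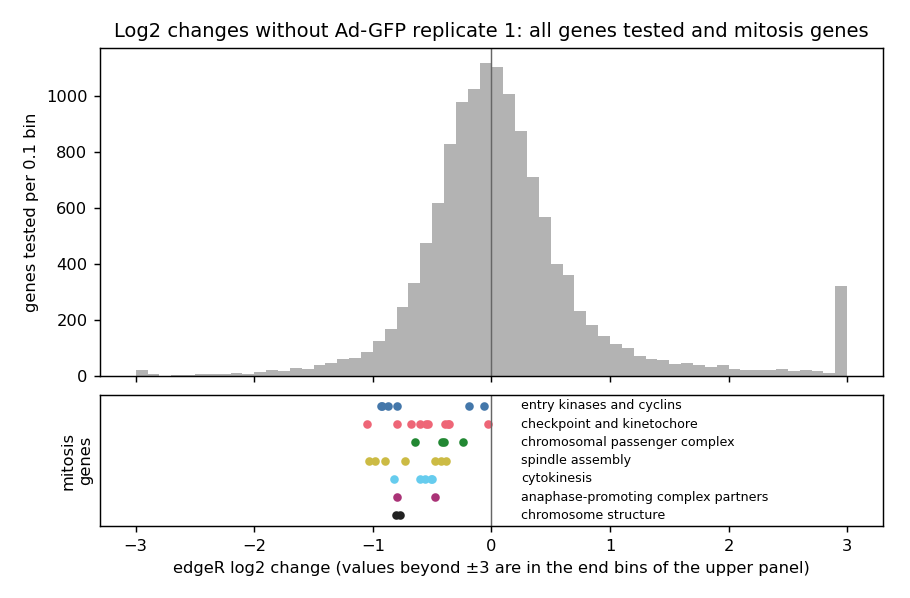
Upper panel, number of genes tested per bin of edgeR log2 change without Ad-GFP replicate 1; lower panel, the 36 mitosis and spindle genes by role, on the same axis. The 36 genes lie between -1.05 and -0.02, while the bulk of all genes is centred near their median of 0.01.

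Among the kinases and cyclins of mitotic entry, 5 of 6 fell, with a median log2 change of -0.84. Plk1 (ENSRNOG00000018815), a kinase for centrosome maturation and mitotic entry, stood at 129 and 133 CPM in Ad-GFP replicates 2 and 3, at 75.9, 78.5 and 76.7 CPM in the libraries labelled Ad-RNF128 (mean 77.0 ± 1.38 SD, n = 3) and at 25.1 CPM in Ad-GFP replicate 1. The groups were well apart, and Plk1 fell by 0.92 ± 0.06 on the log2 scale (SE; edgeR adjusted p = 1.87e-08), to a fitted level 47.1% lower.

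The cyclins fell by similar amounts. Ccna2, which serves S phase and early mitosis, went from 93.2 and 75.1 CPM to 49.8, 51.0 and 46.4 CPM, a log2 change of -0.93 ± 0.08 (edgeR adjusted p = 2e-07). Ccnb1, the main mitotic cyclin, went from 109 and 96.0 CPM to 61.1, 63.8 and 61.5 CPM, a log2 change of -0.88 ± 0.07 (edgeR adjusted p = 5.51e-08). Ccnb2 went from 63.6 and 51.7 CPM to 39.5, 34.4 and 36.7 CPM, with a log2 change of -0.80. In none of the 3 cyclins did the groups overlap.

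Their partner kinase differed far less. Cdk1 (ENSRNOG00000000632) stood at 117 and 109 CPM in Ad-GFP replicates 2 and 3, at 116, 111 and 105 CPM in the libraries labelled Ad-RNF128 (mean 111 ± 5.43 SD, n = 3) and at 19.0 CPM in Ad-GFP replicate 1. These groups overlapped, and the log2 change was -0.19 ± 0.07 (edgeR adjusted p = 0.0268). The call was lost with library totals only (adjusted p = 0.70), on leaving out Ad-GFP replicate 2 (0.131), and on leaving out Ad-RNF128 replicate 2 (0.0778) or Ad-RNF128 replicate 3 (0.0931), and the adjusted p ran from 0.00347 to 0.70 over all alternatives of this edgeR, DESeq2 and limma comparison. Cdc25c (ENSRNOG00000024008), a phosphatase that activates Cdk1, had 13.1 and 10.6 CPM in Ad-GFP replicates 2 and 3, 12.2, 13.3 and 12.4 CPM in the libraries labelled Ad-RNF128 (mean 12.6 ± 0.614 SD, n = 3) and 0.306 CPM in Ad-GFP replicate 1. It did not pass, with a log2 change of -0.06 ± 0.12 (edgeR adjusted p = 0.683) and an interval of 1.96 SE from -0.29 to 0.17.

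Of the 10 genes of the spindle checkpoint and kinetochore, 9 fell, with a median log2 change of -0.54. Bub1b (ENSRNOG00000007906), the BubR1 subunit of the mitotic checkpoint complex, stood at 75.4 and 70.1 CPM in Ad-GFP replicates 2 and 3, at 38.2, 40.03 and 38.7 CPM in the libraries labelled Ad-RNF128 (mean 39.0 ± 0.944 SD, n = 3) and at 1.04 CPM in Ad-GFP replicate 1. Its log2 change of -1.05 ± 0.07 (edgeR adjusted p = 6.44e-09) was the lowest of the 36. Bub3 (ENSRNOG00000020643), the binding partner of both Bub1 and BubR1, had 123 and 119 CPM in Ad-GFP replicates 2 and 3, 128, 135 and 133 CPM in the libraries labelled Ad-RNF128 (mean 132 ± 3.36 SD, n = 3) and 20.2 CPM in Ad-GFP replicate 1. Its CPM was higher in all 3 libraries labelled Ad-RNF128, but after TMM scaling the log2 change was -0.02 ± 0.06 (edgeR adjusted p = 0.759), with an interval of 1.96 SE from -0.15 to 0.10. The direction of Bub3 thus changed with the scaling.

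The other checkpoint and kinetochore genes spanned log2 changes from -0.80 to -0.36. Cenpa, the histone variant of centromeres, fell from 93.3 and 86.8 CPM to 58.0, 59.8 and 54.6 CPM, a log2 change of -0.80 (edgeR adjusted p = 1.32e-07). Ttk, the checkpoint kinase also called Mps1, went from 39.8 and 27.3 CPM to 24.3, 22.8 and 22.8 CPM (log2 change -0.67). Bub1, a checkpoint kinase, went from 71.7 and 61.4 CPM to 49.8, 54.4 and 48.8 CPM (log2 change -0.53). Ndc80, of the complex that grips microtubules, and Cenpf, a large kinetochore protein, had log2 changes of -0.60 and -0.55.

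Nuf2, Cenpe and Mad2l1 had the smallest log2 changes among the genes of this group that passed. Nuf2, the partner of Ndc80, had 59.3 and 42.6 CPM in Ad-GFP replicates 2 and 3 against 44.4, 44.1 and 40.3 CPM, so its groups overlapped, and its log2 change of -0.39 ± 0.10 (edgeR adjusted p = 0.00412) was not called without Ad-GFP replicate 2 (adjusted p = 0.129) or with library totals only (0.0831). Cenpe, a kinetochore motor, had 26.5 and 26.2 CPM against 26.6, 22.9 and 19.1 CPM, with a log2 change of -0.36 ± 0.11 (edgeR adjusted p = 0.0109) that was not called without Ad-RNF128 replicate 3 (adjusted p = 0.0502) or with library totals only (0.139). Mad2l1, the Mad2 checkpoint protein, had a log2 change of -0.36.

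All 4 genes of the chromosomal passenger complex, which corrects faulty attachments and later marks the midzone, fell, with a median log2 change of -0.41. Cdca8 (ENSRNOG00000031431), which encodes borealin, had 60.1 CPM in each of Ad-GFP replicates 2 and 3, 43.2, 42.7 and 42.5 CPM in the libraries labelled Ad-RNF128 (mean 42.8 ± 0.331 SD, n = 3) and 53.1 CPM in Ad-GFP replicate 1. It was the single member for which Ad-GFP replicate 1 lay above the libraries labelled Ad-RNF128, and its log2 change was -0.65 ± 0.07 (edgeR adjusted p = 1.33e-06). Incenp (ENSRNOG00000032929), the scaffold of the complex, stood at 119 and 114 CPM in Ad-GFP replicates 2 and 3, at 99.01, 97.7 and 98.1 CPM in the libraries labelled Ad-RNF128 (mean 98.2 ± 0.696 SD, n = 3) and at 7.34 CPM in Ad-GFP replicate 1, with a log2 change of -0.40 ± 0.06 (edgeR adjusted p = 7.76e-05).

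Birc5, which encodes survivin, went from 32.1 and 32.2 CPM to 26.8, 26.0 and 27.6 CPM, a log2 change of -0.42. Aurkb, its kinase, went from 55.9 and 55.4 CPM to 51.5, 52.2 and 53.5 CPM, a log2 change of -0.24 (edgeR adjusted p = 0.00734). The groups of both genes lay side by side without overlap, and with library totals only Aurkb did not pass (log2 change -0.08, adjusted p = 0.277).

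All 7 genes of spindle assembly fell, with a median log2 change of -0.73. Kif11 (ENSRNOG00000056069), the kinesin that pushes the spindle poles apart, stood at 110.4 and 97.0 CPM in Ad-GFP replicates 2 and 3, at 57.2, 59.2 and 52.9 CPM in the libraries labelled Ad-RNF128 (mean 56.5 ± 3.22 SD, n = 3) and at 0.245 CPM in Ad-GFP replicate 1. Its log2 change was -1.03 ± 0.07 (edgeR adjusted p = 1.63e-08), a fitted level 51.0% lower. Kif4a, a chromokinesin, went from 68.4 and 58.0 CPM to 34.5, 35.1 and 36.8 CPM (log2 change -0.98), and Kif2c, a microtubule depolymerase of centromeres, from 54.9 and 51.0 CPM to 31.8, 29.2 and 34.2 CPM (log2 change -0.89). In these 3 kinesins every library labelled Ad-RNF128 was below both controls.

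Prc1 (ENSRNOG00000013057), which bundles midzone microtubules, had a smaller log2 change than these kinesins. It stood at 149 and 148 CPM in Ad-GFP replicates 2 and 3, at 117, 125 and 116 CPM in the libraries labelled Ad-RNF128 (mean 119 ± 4.77 SD, n = 3) and at 4.22 CPM in Ad-GFP replicate 1. Its log2 change was -0.47 ± 0.06 (edgeR adjusted p = 2.05e-05). Tpx2, a spindle assembly factor that activates the kinase Aurka, had a log2 change of -0.73, whereas Aurka itself, at 39.3 and 41.8 CPM against 31.2, 37.4 and 34.9 CPM, had one of -0.39. Nusap1, a microtubule-binding protein, had a log2 change of -0.43.

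All 5 genes of cytokinesis fell, with a median log2 change of -0.56. Kif20a (ENSRNOG00000024428), a kinesin that carries Plk1 and the passenger complex to the midzone, stood at 125 and 115 CPM in Ad-GFP replicates 2 and 3, at 77.4, 75.4 and 74.3 CPM in the libraries labelled Ad-RNF128 (mean 75.7 ± 1.58 SD, n = 3) and at 2.87 CPM in Ad-GFP replicate 1. The groups were apart, and the log2 change was -0.82 ± 0.06 (edgeR adjusted p = 6.1e-08). Racgap1 (ENSRNOG00000049033) and Kif23 form centralspindlin, the complex that positions the cleavage furrow. Racgap1 had 169 and 163 CPM in Ad-GFP replicates 2 and 3, 129.5, 130.7 and 131.4 CPM in the libraries labelled Ad-RNF128 (mean 130.5 ± 0.921 SD, n = 3) and 23.4 CPM in Ad-GFP replicate 1, with a log2 change of -0.50 ± 0.06 (edgeR adjusted p = 6.77e-06). Kif23 changed by nearly the same amount, -0.51. Ect2, the exchange factor that activates RhoA at the furrow, and Anln, the furrow scaffold anillin, had log2 changes of -0.56 and -0.60.

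Both partners of the anaphase-promoting complex fell. Cdc20 (ENSRNOG00000028415), the activator that the checkpoint holds back, stood at 51.6 and 48.3 CPM in Ad-GFP replicates 2 and 3, at 28.9, 32.7 and 33.9 CPM in the libraries labelled Ad-RNF128 (mean 31.8 ± 2.62 SD, n = 3) and at 18.2 CPM in Ad-GFP replicate 1. Its log2 change was -0.80 ± 0.08 (edgeR adjusted p = 9.72e-07). Ube2c, the ubiquitin-conjugating enzyme of the complex, went from 41.7 and 40.9 CPM to 34.6, 33.8 and 30.7 CPM, a log2 change of -0.48.

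Both genes of chromosome structure fell as well. Mki67 (ENSRNOG00000028137), which encodes the proliferation marker Ki-67 that coats mitotic chromosomes, had 350.1 and 261 CPM in Ad-GFP replicates 2 and 3, 213, 199 and 183 CPM in the libraries labelled Ad-RNF128 (mean 198 ± 15.0 SD, n = 3) and 1.16 CPM in Ad-GFP replicate 1. Top2a (ENSRNOG00000053047), the topoisomerase that untangles sister chromatids, had 237 and 208 CPM in Ad-GFP replicates 2 and 3, 139, 142 and 143 CPM in the libraries labelled Ad-RNF128 (mean 141 ± 1.83 SD, n = 3) and 0.306 CPM in Ad-GFP replicate 1. Neither gene's groups overlapped, and the log2 changes were -0.77 ± 0.09 for Mki67 (edgeR adjusted p = 5.6e-06) and -0.81 ± 0.06 for Top2a (edgeR adjusted p = 8e-08).

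Ratios of reads between partner genes within a library do not depend on scaling. These pairs were chosen after the values were seen, so the ratios are given without a test. Ccnb1 had 0.932 and 0.880 reads per Cdk1 read in Ad-GFP replicates 2 and 3 and 0.527, 0.575 and 0.585 in the libraries labelled Ad-RNF128 (mean 0.562 ± 0.0312 SD, n = 3). Ccna2 had 0.794 and 0.689 reads per Cdk1 read against 0.429, 0.460 and 0.441. Bub1b had 0.615 and 0.589 reads per Bub3 read against 0.297, 0.297 and 0.291 (mean 0.295 ± 0.0033 SD, n = 3), and Bub1 had 0.585 and 0.515 against 0.388, 0.403 and 0.367. In all 4 pairs every library labelled Ad-RNF128 was below both controls, and Ad-GFP replicate 1 was lower still, at 0.0579, 0.0193, 0.0515 and 0 in the same order.

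**Figure D4:**
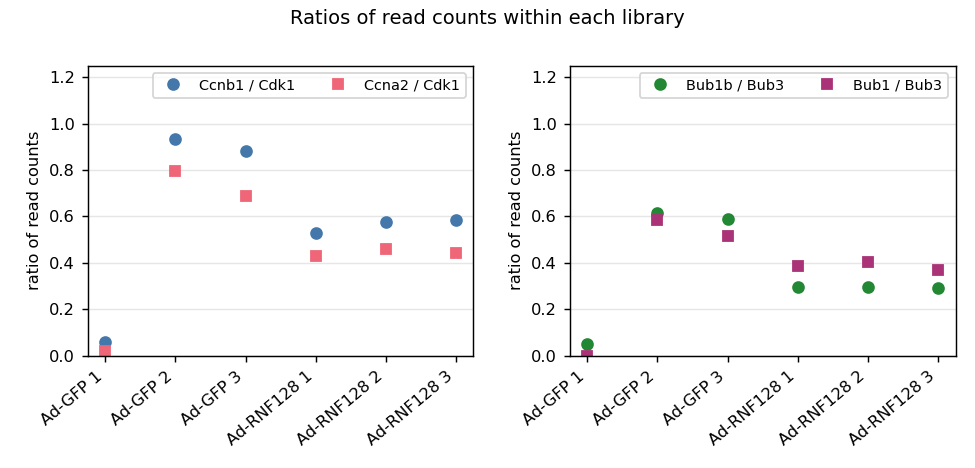
Ratio of read counts within each of the 6 libraries, Ccnb1 and Ccna2 over Cdk1 (left) and Bub1b and Bub1 over Bub3 (right), on linear axes from 0. The 3 libraries labelled Ad-RNF128 lie between Ad-GFP replicate 1 and Ad-GFP replicates 2 and 3 in all 4 ratios.

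Ad-GFP replicate 1 held the lowest level of 35 of the 36 genes. Low levels were usual in that library. Over the 11766 features with a mean of at least 1 CPM in Ad-GFP replicates 2 and 3, its median was 23.5% of that mean, with 29.1% of features over 100%. How many of all features were lowest there, or under 1 CPM, was not counted, so neither count is a result about these genes. Its summed level of 249 CPM was 0.0249% of its counts, against 0.332% and 0.296% in Ad-GFP replicates 2 and 3 and 0.222% to 0.230% in the libraries labelled Ad-RNF128. Ad-GFP replicates 2 and 3 held on average 12.6 times as much. In that library 15 of the genes were under 1 CPM, against 0 in each of the other 5. Bub1 had no read there, which allows up to 0.183 CPM, so the mean of 66.6 CPM in Ad-GFP replicates 2 and 3 was at least 363-fold higher than the limit of 3 counts in that library. Top2a had 5 reads and Mki67 19.

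The shortfall in Ad-GFP replicate 1 was uneven. As a percentage of the mean of Ad-GFP replicates 2 and 3, the 36 genes had a median of 1.63% (range 0 to 88.4%), with 26 under 10% and 14 under 1%. Over the 11766 features with a mean of at least 1 CPM in those controls, the median was 23.5%, with 38.3% of features under 10%, 8.78% under 1% and 29.1% over 100%. The 10 genes at 10% or more were Cdca8 (88.4%), Ube2c (46.4%), Aurka (41.0%), Cdc20 (36.4%), Birc5 (33.9%), Plk1 (19.2%), Cdk1 (16.8%), Bub3 (16.7%), Racgap1 (14.1%) and Aurkb (13.9%). The 3 that kept most, Cdca8, Ube2c and Aurka, came from 3 role groups.

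With all 6 libraries, as the labels group them, 0 of the 36 genes passed in either direction and 0.0% of the 12863 genes tested were called by edgeR. At an unadjusted p under 0.05, edgeR gave 432 genes higher and 310 lower, and among the 36 Cdca8 alone (log2 change -1.08 ± 0.42, edgeR adjusted p = 0.681). DESeq2 called 1.1% of genes lower and 1.9% higher, and limma-voom called 0.0% lower and 0.109% higher, with 0 of the 36 in both. In the edgeR fit, TMM scaling gave Ad-GFP replicate 1 a factor of 0.47, against 1.08 to 1.22 for the other libraries. The median log2 change was -0.17, with 22 genes below 0 and 14 above, from -1.08 for Cdca8 to 0.46 for Cdc25c, beside a median of -0.02 over all genes. Over the 13 alternatives that median ran from -0.58 to 0.64 and was above 0 in 5. The -0.58 came from leaving out Ad-GFP replicate 1, which is the first comparison again. With that library kept, the median was below 0 in the main fit and above 0 in 5 alternatives, so this comparison gave the list no stable direction. For single genes the SE was large wherever Ad-GFP replicate 1 was near 0, as for Bub1 (log2 change 0.04 ± 1.60) and Top2a (-0.24 ± 1.46).

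**Figure D5:**
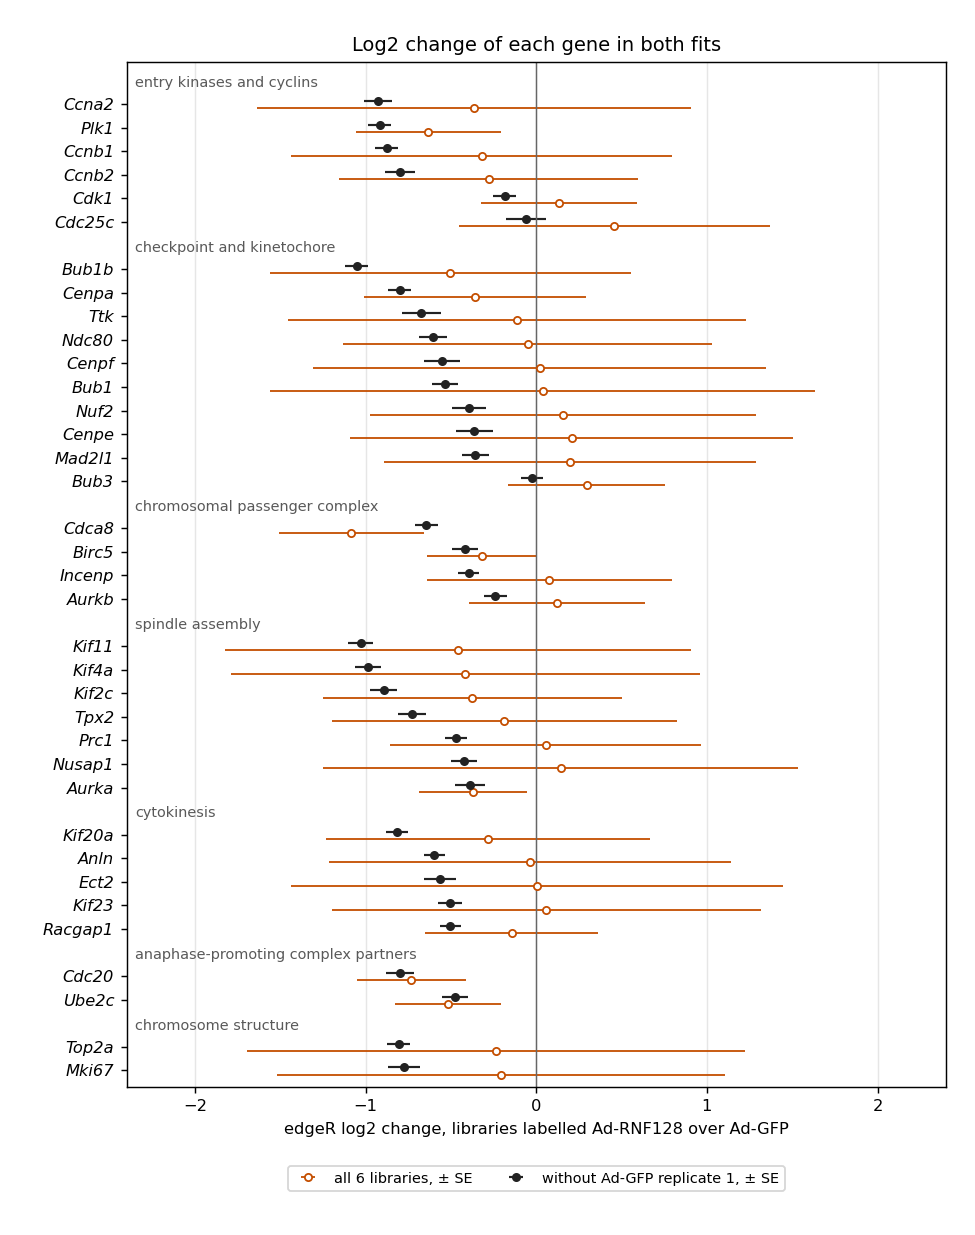
Log2 change ± SE of each of the 36 genes from edgeR, without Ad-GFP replicate 1 (filled) and with all 6 libraries (open), grouped by role; values left of 0 are lower in the libraries labelled Ad-RNF128. Filled points lie between -1.05 and -0.02 with short bars, whereas open points run from -1.08 to 0.46 and most of their bars span 0.

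Other genes of the division machinery, from 7 lists drawn up by pathway, were counted in the comparison without Ad-GFP replicate 1. There 28.0% of all genes tested were lower and 28.9% higher, or 18.3% and 40.7% with library totals only. Of 24 other mitotic kinesins and spindle proteins tested, 21 were lower and 0 higher (median log2 change -0.59), led by Aspm, a spindle pole protein (-1.18 ± 0.07, edgeR adjusted p = 3.76e-09), and Tacc3, a spindle microtubule protein (-0.73 ± 0.07). Of 8 condensin subunits, which compact mitotic chromosomes, 6 were lower and 0 higher (median -0.55), led by Ncapd2 (-0.998 ± 0.07) and Smc2 (-0.89 ± 0.07). Of 27 kinetochore and cohesion genes, 20 were lower and 3 higher (median -0.37), led by Espl1, the separase (-0.90 ± 0.07), and Rad21, a cohesin subunit (-0.54 ± 0.06), but with library totals only 11 were lower and 3 higher.

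The anaphase-promoting complex itself and factors of mitotic exit had 9 of 13 lower and 0 higher (median -0.34), led by Anapc1 (-0.84 ± 0.07) and Cdc16 (-0.53 ± 0.07), and with library totals only 7 were lower and 1 higher. Of 26 genes of DNA replication, 20 were lower and 1 higher (median -0.44), led by Pola1, a DNA polymerase subunit (-0.91 ± 0.08), and Ccne1, the G1/S cyclin E (-0.75 ± 0.07), and with library totals only 13 were lower and 2 higher. All 7 lists had 0 genes called with all 6 libraries.

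Among 20 regulators of the late cell cycle programme, 11 were lower, 2 were higher and 7 did not pass (median -0.32). With library totals only, 10 were lower and 4 higher (median -0.16), beside 18.3% and 40.7% of all genes tested. E2f7, a repressor of the E2F family, changed by -0.995 ± 0.10 (edgeR adjusted p = 1.11e-06) and Ccnf, a cyclin F-box protein, by -0.60 ± 0.07. The elements searched in the promoters are those of the DREAM, MuvB and NF-Y complexes. Of their listed genes, Mybl2 (-0.36), Lin9 (-0.27), Rbl1 (-0.45), Rbl2 (-0.40) and Nfyc (-0.44) fell and Lin37 (0.48) rose. Lin54 (-0.06), Lin52 (0.17), E2f4 (0.12), Nfya (-0.18) and Nfyb (0.17) did not pass. Foxm1 had 0 to 0.369 CPM and was not tested. Wee1, the kinase that inhibits Cdk1, had a log2 change of -0.02 and did not pass, and Pkmyt1, a related kinase that also inhibits Cdk1, rose by 0.30.

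Of 13 cell cycle inhibitors, 5 (38.5%) were lower, 3 (23.1%) were higher and 5 did not pass (median -0.08), shares near the 28.0% and 28.9% of all genes tested, so the counts are not a result about this list. With library totals only, 4 were lower and 5 higher (median 0.08), beside 18.3% and 40.7% of all genes tested. Gadd45a, a stress-induced inhibitor of Cdk1, stood at 50.2 and 45.9 CPM in Ad-GFP replicates 2 and 3, at 212, 230 and 196 CPM in the libraries labelled Ad-RNF128 and at 26.3 CPM in Ad-GFP replicate 1. It rose by 1.99 ± 0.08 on the log2 scale (edgeR adjusted p = 3.36e-11). Btg1, an antiproliferative factor, rose by 0.94, whereas the CDK inhibitors Cdkn2c (-0.92 ± 0.07) and Cdkn1b (-0.64) fell. Cdkn1a, the p53 target p21, had 197 and 201 CPM against 208, 225 and 198 CPM and did not pass (-0.08, edgeR adjusted p = 0.363).

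Markers of the listed cell types did not move in a common direction. Without Ad-GFP replicate 1, 28.0% of all genes tested were lower and 28.9% higher, so counts from such short lists say little. Of 8 fibroblast markers tested, 5 were lower, among them Col1a1 (log2 change -2.37 ± 0.07) and Col1a2 (-1.82 ± 0.07), and 0 were higher. Thy1 (0.17), Pdgfra (0.55) and Dcn (-0.55) did not pass. Tcf21, a fibroblast transcription factor, was near 0 in every library: it had 0.0554 and 0.0469 CPM in Ad-GFP replicates 2 and 3 and 0 in the other 4, where a count of 0 allows 0.138 to 0.183 CPM. Of 8 cardiomyocyte markers tested, 1, Tnnt2 (-3.12 ± 0.13), was lower. Smooth muscle markers summed to 5240 and 5826 CPM in Ad-GFP replicates 2 and 3, 5020 to 5590 CPM in the libraries labelled Ad-RNF128 and 4693 CPM in Ad-GFP replicate 1, and of 4 tested, 1 was lower (Acta2, -0.38) and 2 were higher (Myh11, 1.57, and Tagln, 0.20). Endothelial markers summed to 0.727 to 1.58 CPM over all libraries, and the 1 tested, Cdh5, was higher (1.53 ± 0.58) at levels of at most 0.702 CPM. Macrophage and leukocyte markers summed to 16.5 to 34.3 CPM over all libraries, and 2 of 3 tested were higher, Csf1r (2.24 ± 0.33) and Cd68 (1.41 ± 0.45), at levels of at most 2.67 and 1.11 CPM. Skeletal myoblast markers, 4 of 6 in the tables, summed to 91.6 and 95.2 CPM in Ad-GFP replicates 2 and 3, 103 to 106 CPM in the libraries labelled Ad-RNF128 and 173 CPM in Ad-GFP replicate 1. That sum held opposite changes: Des was higher (2.91 ± 0.09, from 7.70 and 8.63 CPM to 69.9, 66.7 and 68.5 CPM), while Myog (-2.61 ± 0.13) and Myod1 (-0.92 ± 0.09) were lower. The part of these markers in the changes of the mitosis and spindle genes was not tested.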

How the data were processed

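RNA sequencing of 6 libraries in 2 groups was analysed from the deposited counts of reads per gene, with 1 table per library and 18077 rows. The submitters' processing notes list the build mRatBN7.2, HTSeq 0.13.5 and HISAT2 without a version. No source used here states the strand setting, so reads of antisense or overlapping genes cannot be told apart. The column of Ad-GFP replicate 1 was taken as deposited expected counts because 1 value is not whole, and that value was rounded. There were 106 rows that repeat an ID, and they were kept as features. Library totals ran from 16352843 to 21708973. Limits for a count of 0 (3 counts) cover counting error only.

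Genes were tested with edgeR 4.0.16 in R 4.3.3 (filterByExpr, TMM, quasi-likelihood F-test, Benjamini-Hochberg adjustment over all genes tested, threshold 0.05), with all 6 libraries and without Ad-GFP replicate 1, where the spread is pooled over both groups. The SE is the size of the log2 change over the square root of its F statistic. CPM were computed on library totals. Alternatives were DESeq2 1.42.0, limma-voom (limma 3.58.1), scaling by library totals only or by median-of-ratios size factors, no low-count filter, a stricter filter (10 counts in 3 libraries, mean CPM of 1), a replicate block, an adjusted p under 0.01, a log2 change of at least 1, and leaving out each library. The scripts were tested on simulated data. Replicates were not duplicates of each other: the chi-square per degree of freedom within groups, leaving Ad-GFP replicate 1 aside, was 4.33 to 6.84.

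The genes, role groups, pathway lists and tests were chosen with earlier results of these data known. In each role group, full values are given for the gene with the smallest p, the gene with the highest mean CPM and each gene that did not pass. In each other list the 2 genes with the smallest p are named. Regulators and inhibitors could be named freely. Promoter windows came from a RefSeq table on GRCr8 and were searched for fixed letters on both strands.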

Additional observations from a re-analysis of the deposited data

How the results depend on the processing

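Without Ad-GFP replicate 1, the count of 34 lower genes stayed at 29 or more under every alternative run except a log2 change of at least 1, which left 2, and leaving out a further library gave 32 to 34. Their median log2 change of -0.58 was -0.43 with library totals only and ran from -0.64 to -0.50 on leaving out a further library, lowest in size without Ad-GFP replicate 2. With all 6 libraries, 0 genes passed under each alternative that kept Ad-GFP replicate 1, and leaving out each library gave 0 to 34, the 34 without Ad-GFP replicate 1. On leaving out each library the log2 change in all 6 ran from -0.19 to 0.36 for Cdk1, from -0.40 to 0.41 for Incenp and from -0.47 to 0.45 for Prc1, with the values below 0 all from leaving out Ad-GFP replicate 1. Cdk1 was the single gene among the 14 given in full that lost its call without Ad-GFP replicate 1, in 4 alternatives. The cause of these changes was not tested.

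The replicate block gave 34 lower genes and a median of -0.63 without Ad-GFP replicate 1, and 0 genes with a median of 0.49 in all 6 libraries. Without Ad-GFP replicate 1, that block also called 3864 of all 13173 genes tested lower and 3931 higher. The labels do not say that the numbers pair the libraries. Deviations of same-numbered libraries correlated at -0.216, 0.032 and -0.183, but Ad-GFP replicate 1 sets the deviations of all 3 controls, so these values cannot show whether the numbers pair. All 36 genes exceeded 10 CPM in the other 5 libraries. In Ad-GFP replicate 1, 15 genes were under 1 CPM, so ratios there rest on few reads.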

Other observations

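Several genes of the division machinery rose against their lists or, as Pcna, did not follow them. They are given for the comparison without Ad-GFP replicate 1, chosen after their values were seen. Zwint, a kinetochore protein, stood at 85.9 and 82.0 CPM in Ad-GFP replicates 2 and 3 and at 128, 138 and 133 CPM in the libraries labelled Ad-RNF128, and it rose by 0.51 ± 0.07 on the log2 scale (edgeR adjusted p = 1.25e-05). Cenpk, a subunit of the constitutive centromere complex, stood at 21.3 and 17.7 CPM against 37.7, 33.5 and 30.9 CPM and rose by 0.66 ± 0.10 (edgeR adjusted p = 5.61e-05). Spc24, of the Ndc80 complex, rose by 0.42 ± 0.11. In DNA replication, Fen1, the flap endonuclease, rose by 0.23, and Pcna, the polymerase clamp, had 130.3 and 107 CPM against 133, 136 and 128 CPM and did not pass (log2 change 0.01).

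In Ad-GFP replicate 1, the kinetochore, condensin and spindle lists together had a median of 1.99% of the mean of Ad-GFP replicates 2 and 3 over 59 genes, with 44 under 10%. The 4 genes over 100% were Cenpm (89.3 CPM against 25.1 and 26.0), Spc24 (36.9 against 11.1 and 10.3), Ncaph2 (201 against 77.5 and 84.7) and Pmf1 (43.8 against 33.3 and 31.9). Cell cycle inhibitors had a median of 78.2%, with 6 of 13 over 100%, among them Cdkn1a at 333 CPM. Over the 11766 features with a mean of at least 1 CPM in those controls, the median was 23.5%. Of these features 38.3% were under 10% and 29.1% were over 100%, so values over 100% were common in that library.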
